A study of Mus musculus with 4 samples.

Results

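The mRNAs of 8 chemokine receptors, Cxcr3, Cxcr4, Cxcr5, Cxcr6, Cx3cr1, Ccr2, Ccr7 and Ccr9, were measured in single cells from the spleens of mice that had received an allogeneic transplant and leukemia. They are 8 of the 32285 gene identifiers counted, were taken by gene symbol, as a set named with earlier results of these data known, and were all detected. Over 11507 cells they gave 14214 unique molecular identifiers (UMIs, 1 per captured RNA molecule) for Cxcr6, 6917 for Ccr2, 4721 for Cxcr4, 4100 for Cxcr3, 1699 for Cx3cr1, 431 for Ccr9, 315 for Ccr7 and 234 for Cxcr5. The last 3 were therefore measured with far less precision than the others.

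Chemokine receptors are G protein-coupled receptors that steer leukocytes toward the chemokines they bind, and activated Tc exchange the receptors of lymph node entry for those of inflamed tissue. CCR7 binds CCL19 and CCL21 and brings naive and central memory Tc into lymphoid T zones, and CXCR5 binds CXCL13 and leads cells to B cell follicles. CXCR3 (ligands CXCL9, CXCL10 and CXCL11), CXCR6 (CXCL16), CCR2 (CCL2, CCL7 and CCL12) and CX3CR1 (CX3CL1) belong to effector, memory and tissue-homing cells. CCR9 binds CCL25 of the thymus and small intestine, and CXCR4 binds CXCL12 of the bone marrow and is shared by most hematopoietic cells. After allogeneic transplantation such receptors take part in bringing donor Tc to the organs of graft-versus-host disease.

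The recipients were irradiated BALB/c mice that carried WEHI-3B, a mouse myelomonocytic leukemia line, and were given C57BL/6 bone marrow and, on day 2, splenic Tc. Donors were Havcr2fl/fl or Havcr2fl/fl;E8icre/+, and all donor cells thus carried the floxed Havcr2 alleles, the gene of TIM-3, while E8icre is active in CD8+ Tc and is meant to delete Havcr2 there. Each genotype was represented by 2 mice, with 1 library per mouse made on day 23. The labels name a pan-Tc isolation kit and an oligo-tagged antibody against the donor molecule H-2Kb, whereas the study describes FACS-sorted donor Tc. The study states one range of weeks, that of young adult mice, for its animals as a whole, and gives no age per group.

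The libraries held 1511 to 6737 barcodes and 17693991 to 55045903 gene UMIs, and 1204 to 4328 cells per library were analysed. Of these 11507 cells, 6813 were Tc by their cluster, and 4694 lay outside Tc, with erythroid, myeloid and progenitor markers, so the Tc label held for part of the barcodes. Tc with a Cd8a or Cd8b1 UMI and none of Cd4 (CD8+ Tc) numbered 1539, 963, 486 and 1294, and those with Cd4 only (CD4+ Tc) numbered 583, 629, 241 and 313. Values in 4 libraries are always given in this order: Havcr2fl/fl;E8icre/+ replicates 1 and 2, then Havcr2fl/fl replicates 1 and 2. Libraries shared 28 barcodes, 16 of them among the cells analysed. Havcr2 itself stood at 61.2, 7.83, 54.8 and 114 CPM in CD8+ Tc, where CPM are the UMIs of a gene summed over a class and scaled to a fixed total of gene UMIs. In CD4+ Tc Havcr2 stood at 55.6, 28.9, 16.8 and 48.9 CPM. By its CD8+ level the library labelled Havcr2fl/fl;E8icre/+ replicate 1 lay within the range of the Havcr2fl/fl libraries, against its label. Within that library, though, the CD8+ level was close to the CD4+ level, whereas both Havcr2fl/fl libraries had clearly more Havcr2 in CD8+ Tc. The state of its Havcr2 alleles was not tested, and the genotype differences are given with and without this library. Erythroid marker RNA (7 genes, all detected) summed to 2257 to 4658 CPM in CD8+ Tc, to 198 to 5244 CPM in CD4+ Tc and to 19941 to 58790 CPM outside Tc.

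Of the 8 genes, 5 lie on chromosome 9 (GRCm38, GENCODE M21). Ccr9 (chr9:123678439-123784330), Cxcr6 (chr9:123806475-123811760) and Ccr2 (chr9:124101950-124113557), all on the plus strand, fall within 435119 bases, with 22144 bases between Ccr9 and Cxcr6 and 290189 between Cxcr6 and Ccr2. Cx3cr1 (chr9:119901616-120069879, minus strand) is 3608559 bases before Ccr9, and Cxcr5 (chr9:44511787-44561877, minus strand) is farther away. Cxcr3 is at chrX:101731535-101734269, Cxcr4 at chr1:128588199-128592293 and Ccr7 at chr11:99144196-99155077, each on the minus strand. The gene models of Cxcr5, Cxcr6, Cx3cr1 and Ccr9 overlap genes on the other strand, among them Bcl9l, Fyco1, Wdr48 and Lztfl1. Those of Cx3cr1 and Ccr9 also overlap genes on the same strand, among them Gorasp1 and Gm17200.

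Promoters are shown for the 5 receptors with the most UMIs, whose differences are the best measured, as 300 bases from 250 before to 50 after the start site, on the strand of the gene (RefSeq, GRCm38.p6; 6 of the 8 receptors matched the table). Capitals mark the letters of CTTTGA, a core of TCF factors, and CACCC, bound by KLF factors, or of their reverse complements TCAAAG and GGGTG. Cxcr6 is read at chr9:123806227-123806526 (plus), Ccr2 at chr9:124101933-124102232 (plus), Cxcr3 at chrX:101734098-101734397 (minus), Cxcr4 at chr1:128592250-128592549 (minus) and Cx3cr1 at chr9:120068247-120068546 (minus).
Cxcr6: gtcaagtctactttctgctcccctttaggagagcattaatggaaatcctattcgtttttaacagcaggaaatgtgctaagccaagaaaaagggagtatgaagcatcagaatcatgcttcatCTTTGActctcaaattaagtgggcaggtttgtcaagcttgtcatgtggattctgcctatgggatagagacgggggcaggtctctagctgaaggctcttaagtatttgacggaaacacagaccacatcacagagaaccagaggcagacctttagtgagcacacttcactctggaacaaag
Ccr2: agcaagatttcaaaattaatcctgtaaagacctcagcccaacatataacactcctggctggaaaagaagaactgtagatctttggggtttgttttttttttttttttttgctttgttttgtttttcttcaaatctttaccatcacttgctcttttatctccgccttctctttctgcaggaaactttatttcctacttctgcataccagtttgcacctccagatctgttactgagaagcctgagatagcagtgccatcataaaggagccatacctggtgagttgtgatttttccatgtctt
Cxcr3: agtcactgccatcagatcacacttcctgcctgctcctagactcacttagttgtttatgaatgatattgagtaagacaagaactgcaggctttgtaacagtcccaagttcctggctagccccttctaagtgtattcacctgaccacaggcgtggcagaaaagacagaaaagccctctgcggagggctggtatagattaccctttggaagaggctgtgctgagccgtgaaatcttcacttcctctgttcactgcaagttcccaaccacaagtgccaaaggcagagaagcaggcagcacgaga
Cxcr4: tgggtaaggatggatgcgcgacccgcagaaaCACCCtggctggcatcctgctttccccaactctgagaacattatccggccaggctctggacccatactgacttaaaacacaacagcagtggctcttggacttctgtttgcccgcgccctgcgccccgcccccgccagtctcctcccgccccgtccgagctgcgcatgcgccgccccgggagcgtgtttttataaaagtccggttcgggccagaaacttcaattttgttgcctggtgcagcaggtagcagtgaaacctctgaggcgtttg
Cx3cr1: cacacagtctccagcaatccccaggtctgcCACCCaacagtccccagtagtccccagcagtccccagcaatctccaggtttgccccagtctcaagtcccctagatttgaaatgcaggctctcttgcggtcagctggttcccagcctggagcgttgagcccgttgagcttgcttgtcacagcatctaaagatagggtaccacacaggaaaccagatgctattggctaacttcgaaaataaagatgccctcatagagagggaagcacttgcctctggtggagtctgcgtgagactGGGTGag
Of the 6 promoters searched on both strands, that of Cxcr6 alone held CTTTGA, at -129 from the start site, as did 16.0% of 32851 promoters of the same length. CACCC or its complement occurred in Cxcr4 at -219, in Cx3cr1 at 2 places and in Ccr9 at -73, and in 57.5% of all promoters. The T-box core GGTGTG was found in Ccr9 alone, at -13, and in 19.05% of all promoters. These are matches of letters in the window and say nothing about binding.

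Across the broad classes, Cxcr6 and Cxcr3 were Tc transcripts, whereas Cxcr4 and Ccr2 were also present outside Tc. To compare shares at equal depth, each cell was thinned to 2000 UMIs, which left 4076 CD8+ Tc, 1678 CD4+ Tc and 4558 cells outside Tc and left out 206, 88 and 136 shallower ones. A Cxcr6 UMI was then found in a mean of 51.4% of CD8+ Tc, 34.5% of CD4+ Tc and 1.19% of cells outside Tc. Unthinned, the Cxcr6 shares were 72.9% of CD8+ Tc and 4.30% outside Tc, at median depths of 4804 and 16920 UMIs per cell. For Cxcr3 the thinned shares were 15.5% of CD8+ Tc, 26.3% of CD4+ Tc and 0.370% outside Tc. Cx3cr1 UMIs were seen in 7.71% of CD8+ Tc, 3.21% of CD4+ Tc and 0.453% of the other cells. Ccr7 (0.412%, 2.05% and 0.0346%), Cxcr5 (0.557%, 1.65% and 0.0754%) and Ccr9 (1.36%, 1.88% and 0.156%) were rare in every class, and in CD8+ Tc a missing UMI of these genes cannot be told from a transcript missed at this depth. Cxcr4 had a share of 8.64% outside Tc, 6.51% in CD8+ Tc and 10.4% in CD4+ Tc, and Ccr2 reached 5.28% outside Tc against 6.44% and 15.3%. Thinned cells with none of the 8 receptors made up 25.6% to 36.2% of CD8+ Tc by library and 28.2% to 43.6% of CD4+ Tc, and cells with exactly 1 made up 49.3% to 51.5% of CD8+ Tc.

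The receptor repertoires of CD8+ and CD4+ Tc from the same mice were compared on UMIs summed per library. CD8+ Tc carried more Cxcr6 and Cx3cr1, and CD4+ Tc carried more Cxcr3, Cxcr4, Cxcr5, Ccr2 and Ccr7, so 7 of the 8 receptors passed the test (edgeR quasi-likelihood test with the mouse as a block, Benjamini-Hochberg adjusted p under 0.05) against 24.5% of the 10894 genes tested. The median log2 fold change (CD8+ over CD4+) was -0.84 for the receptors and 0.00 for all genes. In such sums, fewer cells that carry a transcript and less RNA per cell cannot be told apart. The 4 NK cell markers (Ncr1, Klrb1c, Klre1 and Eomes, the last also a marker of terminally exhausted CD8+ Tc) summed to 181 to 274 CPM in CD8+ Tc. In CD4+ Tc they summed to 36.4 to 88.1 CPM. Ncr1 was at 0 in all but 1 of the 8 sums, and the part of these markers in the result was not tested. All levels are compared within a gene, since 3′ counts of different genes are not on a common scale of capture.

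Cxcr6, whose ligand CXCL16 exists in a membrane-bound form, had normalized levels of 429, 427, 474 and 391 CPM in CD8+ Tc and 200, 276, 304 and 257 CPM in CD4+ Tc. No CD4+ value reached the lowest CD8+ value. CD8+ Tc exceeded CD4+ Tc by 0.75 on the log2 scale (SE 0.078, adjusted p = 9.51e-06). Cx3cr1, the fractalkine receptor of cytotoxic effector cells, stood at 36.7, 47.8, 75.3 and 44.9 CPM in CD8+ Tc and at 21.1, 16.7, 24.1 and 13.5 CPM in CD4+ Tc. The groups again did not overlap, and the difference was 1.35 on the log2 scale (SE 0.14, adjusted p = 9.44e-06).

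Ccr2, the receptor for the monocyte chemoattractant CCL2, gave 37.5, 39.1, 47.9 and 36.8 CPM in CD8+ Tc and 145, 108, 149 and 110 CPM in CD4+ Tc. Every CD4+ value exceeded every CD8+ value by more than the spread among libraries (log2 fold change -1.67, SE 0.086, adjusted p = 1.80e-08). The levels of Cxcr3, the receptor for interferon-induced chemokines, were 61.3, 98.5, 89.9 and 70.9 CPM in CD8+ Tc and 137, 161, 190 and 123 CPM in CD4+ Tc. They were likewise apart (log2 fold change -0.94, SE 0.081, adjusted p = 1.79e-06). Cxcr4, the CXCL12 receptor, measured 30.9, 22.8, 53.4 and 19.04 CPM in CD8+ Tc and 49.4, 42.3, 87.1 and 28.0 CPM in CD4+ Tc. Its ranges overlapped, yet within each of the 4 libraries CD8+ Tc had the lower level (log2 fold change -0.73, SE 0.092, adjusted p = 5.39e-05). The Cxcr4 call needed the comparison within mice, since adjusted p was 0.223 without the mouse as a block.

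The receptors of lymphoid niches were scarce but ordered in the same way in every library. Ccr7 rested on 17, 27, 9 and 12 UMIs in CD8+ Tc (1.88, 3.92, 2.35 and 2.54 CPM) and on 43, 75, 23 and 8 UMIs in CD4+ Tc (13.7, 19.2, 15.4 and 7.74 CPM). The log2 fold change of Ccr7 was -2.43 (SE 0.24, adjusted p = 6.26e-06), the largest in size of the 8 receptors. Cxcr5 was counted with 26, 43, 7 and 4 UMIs in CD8+ Tc (2.88, 6.25, 1.82 and 0.846 CPM) and 37, 53, 11 and 7 UMIs in CD4+ Tc (11.8, 13.6, 7.37 and 6.77 CPM). Its groups were apart by a narrow margin (log2 fold change -1.70, SE 0.28, adjusted p = 0.000574). Ccr9, the gut-homing receptor, read 11.6, 4.94, 4.95 and 6.14 CPM in CD8+ Tc and 23.0, 3.85, 6.03 and 10.6 CPM in CD4+ Tc. It was higher in CD4+ Tc in 3 of 4 libraries and did not pass the test (log2 fold change -0.57, SE 0.24, adjusted p = 0.106). Without the library labelled Havcr2fl/fl;E8icre/+ replicate 2 it did, with adjusted p = 0.0255 and a log2 fold change of -0.82.

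**Figure D1:**
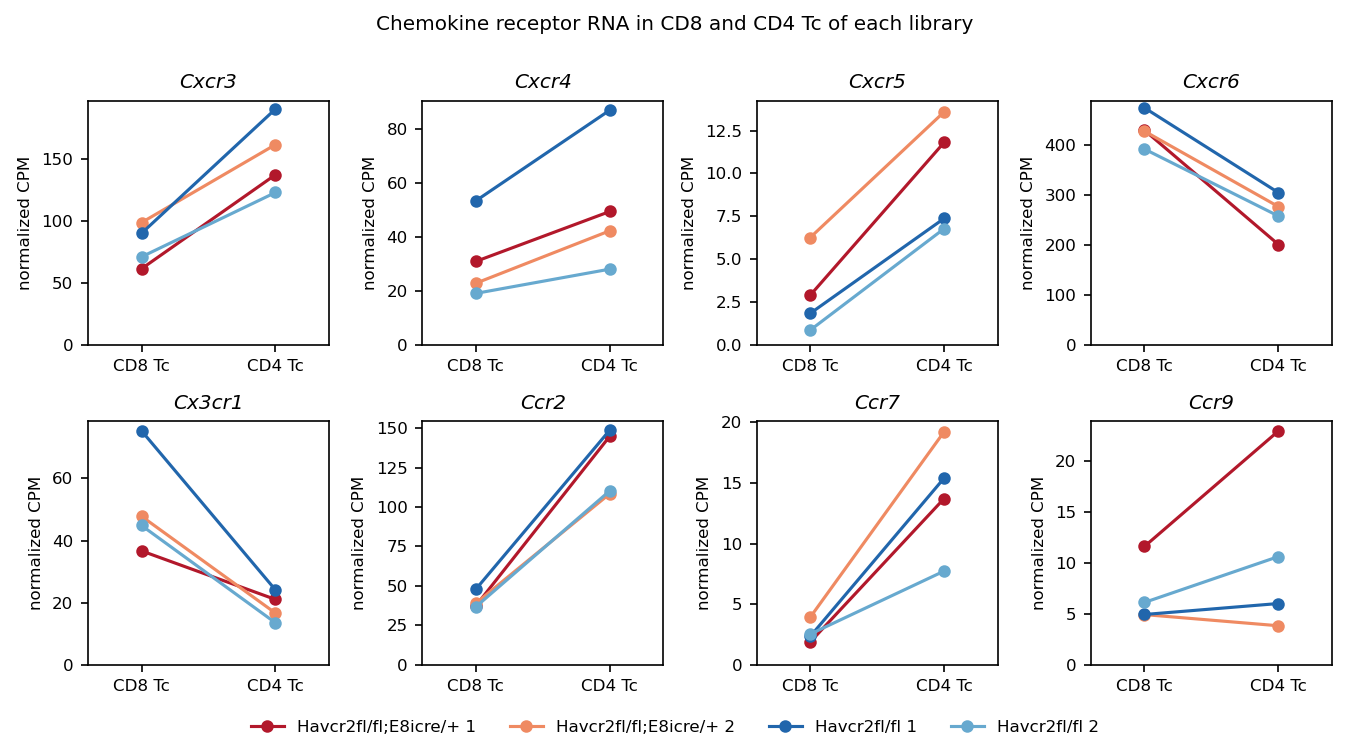
Normalized level (CPM) of each receptor in CD8+ and CD4+ Tc, with 1 line per library joining the sums from the same mouse. Cxcr6 and Cx3cr1 fall toward CD4+ Tc in all 4 libraries, Cxcr3, Cxcr4, Cxcr5, Ccr2 and Ccr7 rise in all 4, and Ccr9 rises in 3.

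Other genes of chemokine reception were read from lists. Of 15 further chemokine receptors, 12 had UMIs and 6 could be tested between CD8+ and CD4+ Tc. Ccrl2 (log2 fold change 1.58) was among those higher in CD8+ Tc, whereas Ccr4 (-4.24) and Ccr8 (-2.18), both known from helper and regulatory Tc, were lower. Among 15 genes of receptor signaling and desensitization, 5 were higher (Rgs3 0.81, Pik3cg 0.59, Gng2 0.38, Grk6 0.24 and Grk2 0.23) and 1 was lower (Rac2 -0.32). Of 10 egress and adhesion genes tested, Itga1 (1.20) and Itga4 (0.19) were higher in CD8+ Tc. Itgae (-3.47), Cd69 (-1.41), Itgb1 (-1.35), S1pr1 (-1.21), Itgb7 (-0.67) and Klf2 (-0.60) were lower, which gave this list a median of -0.63, beside 0.00 for all genes. Ligands of the 8 receptors were scarce in Tc, and neither of the 2 that could be tested passed. Ccl25, the CCR9 ligand, was counted at 11.4 to 21.5 CPM in Tc, and Cxcl10 at 0.503 to 12.5 CPM. Neither was particular to Tc, since cells outside Tc had 9.03 to 13.4 CPM of Ccl25 and 2.73 to 23.9 CPM of Cxcl10.

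To place the receptors within each lineage, CD8+ Tc were grouped into 12 clusters and CD4+ Tc into 7, with all chemokine receptors left out of the genes used for grouping. Clusters were called after marker lists where the markers allowed it and by number and leading genes otherwise. Since the clusters come from the same cells, the levels per cluster (mean CPM ± SD over 4 libraries) are a description with no test. T_PEX-like and T_TEX-like stand for precursor and terminally exhausted CD8+ Tc.

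**Figure D2:**
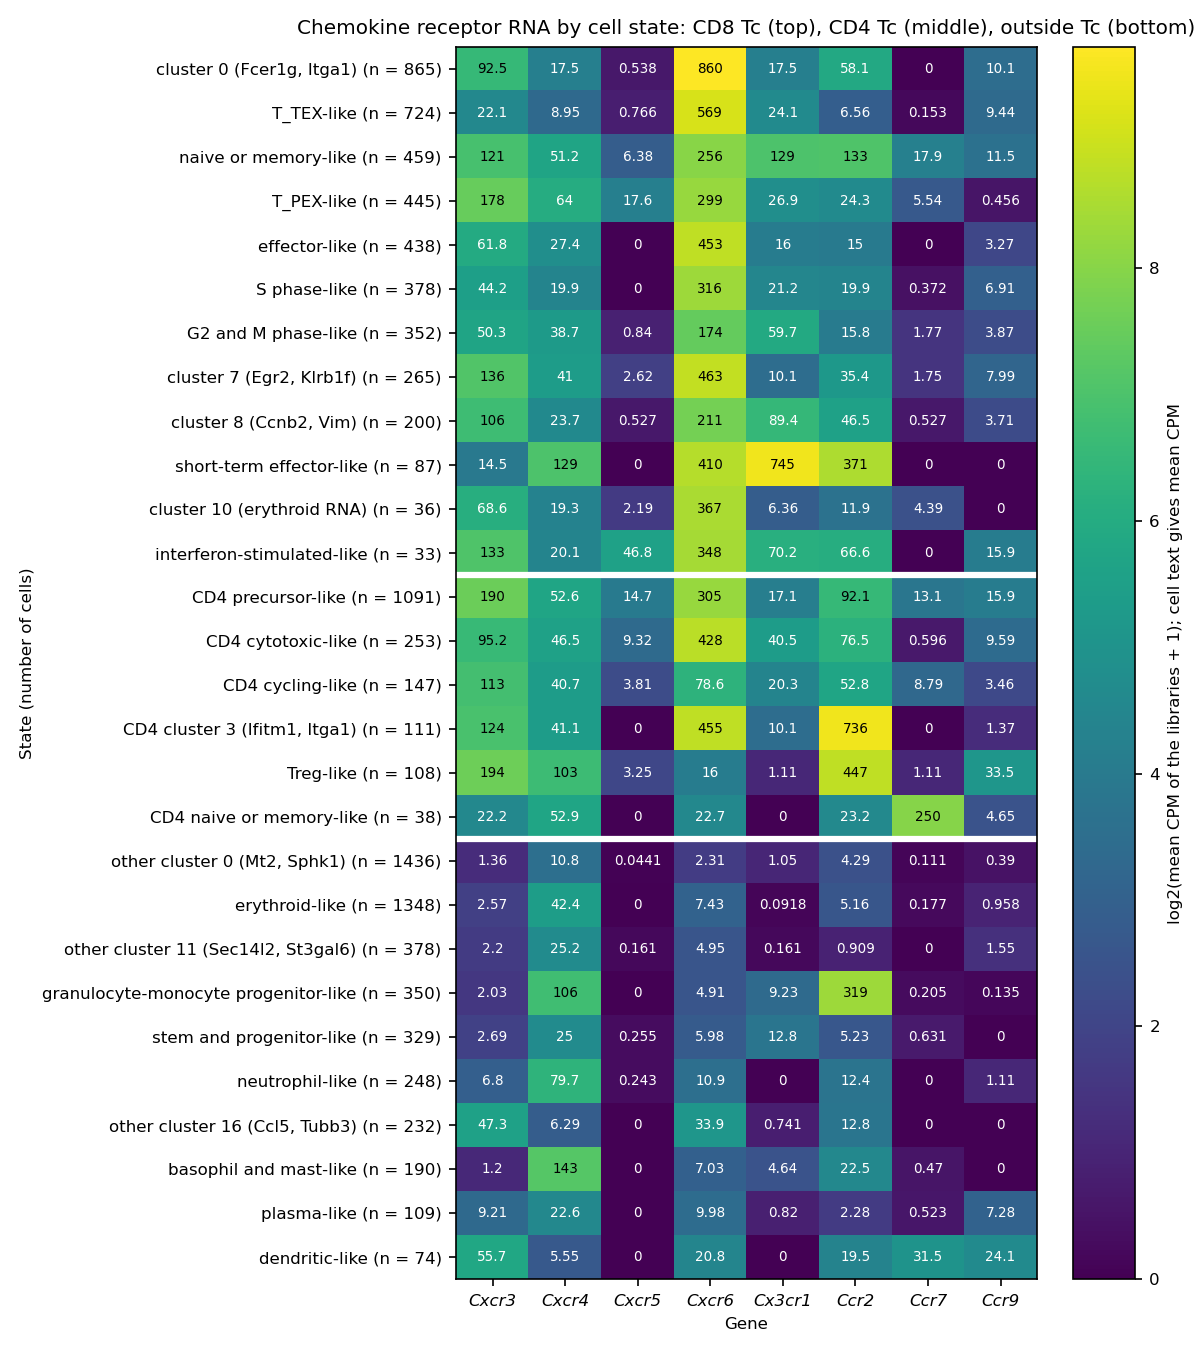
Heatmap of the mean level of each receptor (columns) in cell states of at least 30 cells (rows), with the number in each cell giving the mean CPM over libraries and the colour its log2(CPM + 1). Cxcr6 is at its highest in the CD8+ cluster led by Fcer1g and Itga1, Cx3cr1 in short-term effector-like cells and Ccr2 in a CD4+ cluster led by Ifitm1 and Itga1.

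Cxcr6 was found in all CD8+ states, in graded amounts. Cluster 0 (Fcer1g, Itga1), 865 cells with high Tox (747 CPM), Itga1 (111 CPM) and little S1pr1 (7.09 CPM), had 920, 898, 840 and 784 CPM of Cxcr6 (860 ± 60.9), and 76.1% of its thinned cells held a UMI. Every library of cluster 0 (Fcer1g, Itga1) lay above the highest value of the next state, T_TEX-like cells with 569 ± 26.9 CPM. Cluster 7 (Egr2, Klrb1f) with 463 ± 96.0 CPM, effector-like cells with 453 ± 57.1 CPM and short-term effector-like cells with 410 ± 136 CPM followed, and neighbours in this order overlapped. Cxcr6 was lower in T_PEX-like cells (299 ± 132 CPM) and naive or memory-like cells (256 ± 61.5 CPM), and lowest in G2 and M phase-like cells (174 ± 55.0 CPM). Among CD4+ Tc, CD4 cluster 3 (Ifitm1, Itga1) with 455 ± 113 CPM and CD4 cytotoxic-like cells with 428 ± 111 CPM led, and CD4 precursor-like cells with 305 ± 34.1 CPM stood clear of CD4 cycling-like cells with 78.6 ± 31.4 CPM. Treg-like cells, 108 in all, gave 16.0 CPM of Cxcr6, from 4 UMIs.

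Among CD8+ Tc, Cx3cr1 and Ccr2 had their highest mean levels in short-term effector-like cells, a state of 27, 20, 14 and 26 cells. These cells had high Klf2 (1600 CPM), S1pr1 (243 CPM) and S1pr5 (200 CPM) and low Tox (71.6 CPM). The small state held a minor part of the UMIs of CD8+ Tc, which numbered 1161 for Cx3cr1 and 965 for Ccr2. Its Cx3cr1 levels of 744, 865, 694 and 677 CPM (745 ± 85.0) did not overlap those of any other CD8+ state, and naive or memory-like cells came next with 129 ± 49.8 CPM. Of thinned short-term effector-like cells, 69.4% held a Cx3cr1 UMI, against 0.453% of cells outside Tc. The state depends on how cells were grouped, since without integration of the libraries the cluster sharing most with it had 226 CPM of Cx3cr1 and 178 CPM of Ccr2. T_TEX-like cells and cluster 0 (Fcer1g, Itga1) held Cx3cr1 at 24.1 ± 11.01 and 17.5 ± 5.22 CPM.

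Ccr2 in the same short-term effector-like cells was 378, 228, 477 and 402 CPM (371 ± 105), above every other CD8+ state but the 33 interferon-stimulated-like cells, where 1 library reached 237 CPM, and naive or memory-like cells (133 ± 39.0 CPM) stood apart from cluster 0 (Fcer1g, Itga1) with 58.1 ± 20.9 CPM. T_TEX-like cells were lowest with 6.56 ± 4.62 CPM of Ccr2. In CD4+ Tc, CD4 cluster 3 (Ifitm1, Itga1), 111 cells with S1pr1 at 264 CPM and Tox at 44.5 CPM, gave 973, 772, 686 and 514 CPM (736 ± 191), and 69.0% of its thinned cells held a Ccr2 UMI. The nearest cluster without integration had 347 CPM. Treg-like cells varied widely (625, 174, 836 and 154 CPM, 447 ± 339), and both states were apart from CD4 precursor-like cells (92.1 ± 21.4 CPM). Outside Tc, granulocyte-monocyte progenitor-like cells held 319 ± 11.7 CPM of Ccr2 (4021 UMIs), with little spread between libraries.

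Among CD8+ Tc Cxcr3 was at its highest in T_PEX-like cells, and most Cxcr5 UMIs of both lineages lay in precursor-like states. T_PEX-like cells, with Tcf7 at 346 CPM, had 171, 182, 207 and 151 CPM of Cxcr3 (178 ± 23.6), above T_TEX-like cells (22.1 ± 5.48 CPM) in each library and without overlap. In between lay cluster 7 (Egr2, Klrb1f) with 136 ± 53.0, naive or memory-like cells with 121 ± 34.1 and cluster 0 (Fcer1g, Itga1) with 92.5 ± 8.69 CPM, each overlapping its neighbour. Short-term effector-like cells, so rich in Cx3cr1, showed 14.5 CPM of Cxcr3, all 4 UMIs of it from Havcr2fl/fl replicate 1. In CD4+ Tc, Treg-like (194 ± 76.5 CPM) and CD4 precursor-like cells (190 ± 33.7 CPM) led, and CD4 cytotoxic-like cells had 95.2 ± 46.2 CPM. Cxcr5 gave 29.3, 25.5, 8.88 and 6.85 CPM in T_PEX-like cells (445 of the 4282 CD8+ Tc), which held 51 of the 80 Cxcr5 UMIs of CD8+ Tc. It gave 16.4, 20.9, 8.58 and 12.9 CPM in CD4 precursor-like cells, which held 81 of the 108 of CD4+ Tc. Those cells are 1091 of the 1766 CD4+ Tc. Their Cxcr5 overlapped that of CD4 cytotoxic-like cells (9.32 ± 11.6 CPM) and was above it in 2 of 4 libraries. Interferon-stimulated-like cells had a mean of 46.8 CPM of Cxcr5 from no more than 2 UMIs.

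Ccr7 marked small groups. Naive or memory-like CD8+ Tc held 39 of the 65 Ccr7 UMIs of the lineage (17.9 ± 6.26 CPM) and did not overlap T_PEX-like cells (5.54 ± 3.98 CPM). This level too depends on the grouping, as the cluster closest to naive or memory-like cells held none at a finer resolution, where all of these UMIs went to another of its pieces, and 3.59 CPM without integration. Ccr7 gave 0 UMIs in cluster 0 (Fcer1g, Itga1), effector-like and short-term effector-like cells, which by the limit of 3 counts allows up to 2.21 to 4.24, 5.22 to 9.95 and 34.2 to 54.9 CPM per library, counting error alone, so that in the last of these the depth cannot show a level like that of naive or memory-like cells. In CD4+ Tc, 38 CD4 naive or memory-like cells gave 581, 297, 60.4 and 61.1 CPM, from 18, 32, 1 and 2 UMIs in 9, 16, 3 and 10 cells, and CD4 precursor-like cells gave 13.1 ± 8.09 CPM (0.656 CPM in the closest cluster at a finer resolution). Ccr9 had no state of its own, with 11.5 ± 13.2 CPM in naive or memory-like CD8+ Tc. Treg-like cells gave 33.5 ± 48.5 CPM (103, 31.2, 0 and 0 CPM), from 36, 51, 5 and 16 cells. With 5 and 16 cells, the Havcr2fl/fl libraries cannot show a level like 31.2 CPM, so their 0 values do not part the genotypes. In T_PEX-like cells 2 Ccr9 UMIs were seen.

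Cxcr4 crossed the lineage borders. Among CD8+ Tc it was highest in short-term effector-like cells (129 ± 76.5 CPM) and T_PEX-like cells (64.0 ± 21.4 CPM), whose ranges overlapped, and lowest in T_TEX-like cells (8.95 ± 8.76 CPM). Treg-like cells gave 103 ± 37.4 CPM. Outside Tc, basophil and mast-like cells (143 ± 50.8 CPM), granulocyte-monocyte progenitor-like cells (106 ± 31.3 CPM), neutrophil-like cells (79.7 ± 31.7 CPM) and erythroid-like cells (42.4 ± 8.68 CPM) carried it too.

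The states were then approached without clusters, by asking which receptors go with Tcf7, a factor of stem-like precursor Tc. Tcf7 was not confined to such cells, with 211 ± 81.2 CPM in naive or memory-like and 346 ± 71.4 CPM in T_PEX-like CD8+ Tc. The gate therefore takes in cells of both states. CD8+ Tc with a Tcf7 UMI after thinning (133, 138, 42 and 73 cells) were compared with those without (1373, 815, 430 and 1072 cells) in the same mice, with Tcf7 itself left out of the test. Cxcr3, Cxcr4, Cxcr5 and Ccr7 were higher and Cxcr6 was lower in cells with Tcf7, 5 of 8 receptors against 15.3% of the 10075 genes tested, and the median log2 fold change was 0.67 for the receptors and -0.00 for all genes. Cells with Tcf7 were less often cycling (26.0% to 33.1% against 41.6% to 48.9% with an Mki67 or Top2a UMI), and their erythroid RNA ranged from 184 to 6368 CPM against 2408 to 5040 CPM. The mitochondrial share was higher with Tcf7 in every library (medians of 2.58% to 4.59% against 1.93% to 3.29%). The summed level of 4 NK cell markers was lower, at 105 to 134 CPM with Tcf7 and 188 to 285 CPM without it. Ncr1, a defining one, was at 0 in all of these sums, and Eomes, another of the 4, also marks terminally exhausted CD8+ Tc. The part of erythroid, mitochondrial and NK marker RNA in the result was not tested, and without cycling cells the same 5 receptors passed.

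Cxcr6 fell from 439, 464, 486 and 382 CPM in cells without Tcf7 to 171, 146, 199 and 125 CPM in cells with it, with no overlap (log2 fold change -1.48, SE 0.11, adjusted p = 1.04e-11). Cxcr3 was 121, 148, 157 and 128 CPM with Tcf7 and 54.6, 89.4, 83.1 and 63.4 CPM without it. Its groups did not overlap (log2 fold change 0.93, SE 0.12, adjusted p = 1.62e-06). Cxcr4 was 67.6, 54.0, 80.4 and 38.9 CPM with Tcf7 and 27.5, 17.6, 49.6 and 16.7 CPM without it, higher in each library though the ranges overlapped (log2 fold change 1.24, SE 0.18, adjusted p = 7.62e-06). Ccr7 rose from 0.939, 2.49, 1.94 and 1.14 CPM to 13.8, 12.7, 6.99 and 27.2 CPM, on 9, 12, 2 and 7 UMIs in cells with Tcf7 (log2 fold change 3.12, SE 0.51, adjusted p = 3.59e-05), and with the gate on unthinned counts the difference was 5.38. Cxcr5 was 21.5, 29.7, 3.49 and 3.89 CPM with Tcf7 and 1.41, 2.49, 1.38 and 0.687 CPM without it (log2 fold change 3.41, SE 0.44, adjusted p = 1.22e-06). The Havcr2fl/fl libraries held 1 Cxcr5 UMI each in cells with Tcf7, so that the size of this difference rests on the other pair, and with either Havcr2fl/fl;E8icre/+ library left out Cxcr5 fell under the filter on low counts and was not tested. Cx3cr1 (log2 fold change 0.06, adjusted p = 0.906), Ccr2 (0.11, adjusted p = 0.819) and Ccr9 (0.40, adjusted p = 0.683) did not pass.

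Beside the receptors, 7 of 9 egress and adhesion genes were higher with Tcf7, among them S1pr1 (1.39), Itgb1 (1.28), Klf2 (1.13), Cd69 (0.93), Itgb7 (0.54) and Itga4 (0.29 on the log2 scale), and Itga1 was lower (-1.80). No signaling gene was higher, and 5 were lower, Rgs16 (-2.16) and Rgs1 (-1.63), which shorten G protein signals, among them. Of further receptors, Ccr6 was higher (4.32) and Ccrl2 was lower (-4.04) with Tcf7.

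The same was done for Tox, a factor of exhausted Tc. After thinning, 978, 655, 287 and 675 CD8+ Tc held a Tox UMI and 528, 298, 185 and 470 did not. On unthinned counts 241, 100, 63 and 349 had none, so the class without Tox includes many cells that carry Tox RNA. Cxcr6 was higher and Cxcr3, Cxcr4, Cx3cr1, Ccr2 and Ccr7 were lower in cells with Tox, 6 of 8 receptors against 12% of the 9999 genes tested, with a median log2 fold change of -0.52 for the receptors and -0.01 for all genes. Ccr2 was 18.7, 18.5, 27.9 and 17.2 CPM with Tox and 67.3, 80.1, 73.2 and 56.1 CPM without it. These groups were far apart (log2 fold change -1.80, SE 0.11, adjusted p = 2.18e-09). The summed level of 6 monocyte and macrophage markers moved with Ccr2, at 65.1 to 157 CPM with Tox and 313 to 464 CPM without it. These sums include Ly6c2, which effector and memory Tc also express. With Ly6c2 left out they were 11.9 to 17.8 CPM with Tox and 12.4 to 17.4 CPM without it. The part of this marker RNA in the result was not tested.

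Cx3cr1 was 27.0, 34.6, 59.1 and 37.9 CPM with Tox and 51.5, 73.5, 95.9 and 48.0 CPM without it, lower in each library while the ranges overlapped (log2 fold change -0.80, SE 0.11, adjusted p = 4.19e-05). Ccr7 had 2, 8, 4 and 2 UMIs with Tox and 15, 19, 5 and 10 without it (log2 fold change -2.40, SE 0.44, adjusted p = 0.000862). Cxcr3 differed by -0.49 (SE 0.10, adjusted p = 0.00289) and Cxcr4 by -0.54 (SE 0.11, adjusted p = 0.00188), both with overlapping ranges. Cxcr6 rose from 357, 334, 421 and 299 CPM without Tox to 446, 459, 491 and 435 CPM with it (log2 fold change 0.38, SE 0.052, adjusted p = 5.58e-05). The groups of Cxcr6 did not overlap, but the call was lost when the gate was set on unthinned counts (0.19, adjusted p = 0.161). That gate gave larger differences for Ccr2 (-3.07), Cx3cr1 (-1.62), Cxcr4 (-1.001) and Cxcr3 (-0.81), and without cycling cells Cx3cr1 differed by -1.35. Cxcr5 (0.16, adjusted p = 0.846) and Ccr9 (-0.11, adjusted p = 0.896) did not pass.

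Without the mouse as a block, 1 receptor, Ccr2, still passed in the Tox comparison, and 16 genes in all, while Ccr7 then fell under the filter. Of 10 egress and adhesion genes 7 were lower with Tox, among them S1pr5 (-4.41), S1pr1 (-1.20), Klf2 (-1.06), Itgb7 (-0.72), Itgb1 (-0.59) and Itga1 (-0.57), and none was higher. Rgs16 (0.80), Rgs1 (0.53), Rgs3 (0.38) and Ccrl2 (0.72) were higher, and Gnai2 (-0.18) and Rac2 (-0.17) were lower.

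**Figure D3:**
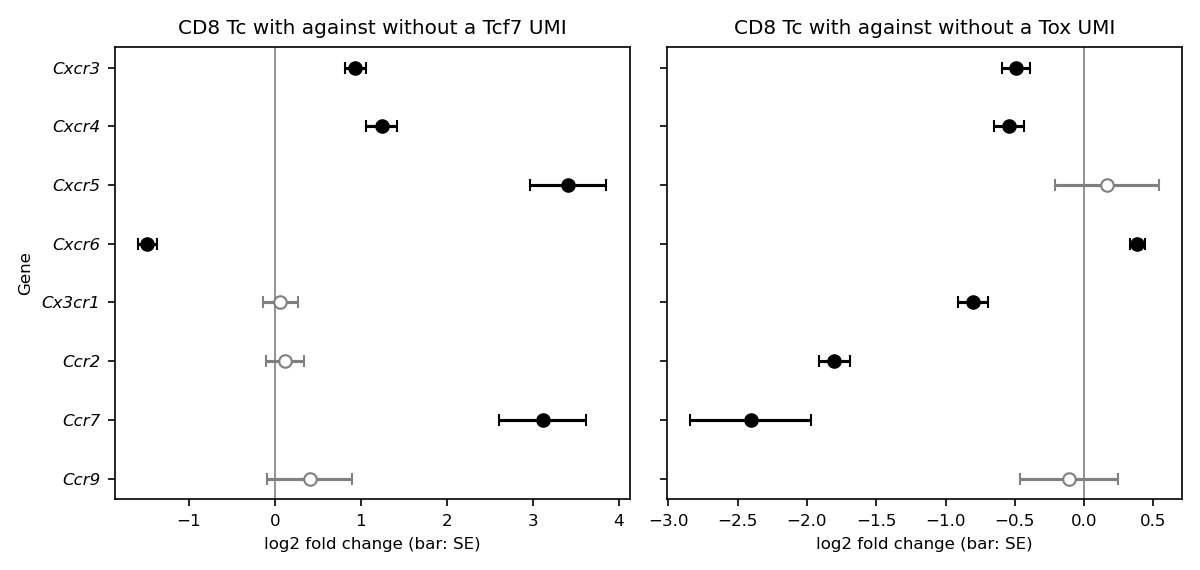
Log2 fold change ± SE of each receptor in CD8+ Tc with against without a UMI, after thinning, of Tcf7 and of Tox. Filled points passed the test at an adjusted p of 0.05. Cxcr6 is at -1.48 for Tcf7 and 0.38 for Tox, and Cxcr3, Cxcr4 and Ccr7 take the opposite signs.

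Whether receptors met in the same cell was described in thinned cells, as the count of cells with both transcripts over the count given by the product of their shares, per library. Among CD8+ Tc, Cx3cr1 and Ccr2 met in 47 cells, at a mean ratio of 2.43 (1.63 to 3.07 over libraries), and Cxcr4 and Ccr2 in 29 cells, at 2.14 (1.46 to 3.22). Cxcr3 and Cxcr4 met in 49 cells at 1.49 (1.31 to 1.64). Cxcr6 met Cxcr3 in 294 cells at 0.938 (0.875 to 0.994) and Cxcr4 in 92 cells at 0.791 (0.614 to 0.993), both under 1 in all libraries. Cxcr6 and Ccr7 were found together in 2 CD8+ Tc, at 0.252 (0 to 0.637), and in no CD4+ Tc. Cells with Ccr7 were few, 5, 4, 3 and 3 among CD8+ Tc and 11, 21, 4 and 3 among CD4+ Tc. In CD4+ Tc, Cxcr6 and Ccr2 met in 116 cells at 1.37 (1.26 to 1.47), whereas in CD8+ Tc the same pair had 1.14 (0.981 to 1.23) over 154 cells. The ratios share cells and library depth, and no test was made.

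**Figure D4:**
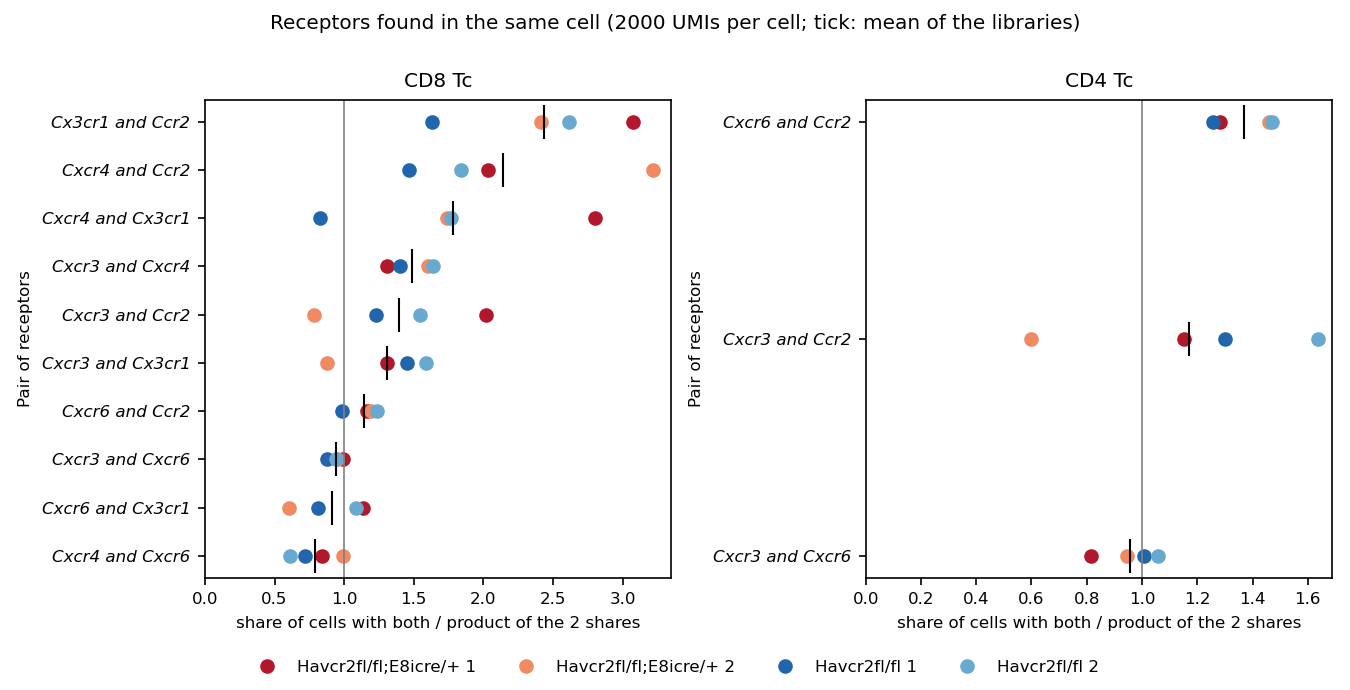
Ratio of cells with both receptors to the number given by the product of their shares in thinned Tc, with 1 point per library and a tick at the mean. The Cx3cr1 and Ccr2 pair lies at 1.63 to 3.07 in CD8+ Tc, and Cxcr3 and Cxcr6 lie at 0.875 to 0.994.

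Genotype was compared last, since the study asks what loss of TIM-3 in CD8+ Tc does to them. In CD8+ Tc no receptor passed, against 0.0275% of 10897 genes (3 genes), and in CD4+ Tc none passed, against 0.0103% of 9671 genes (1 gene). Fewer genes had an unadjusted p under 0.05 than that threshold gives with no true difference. There were 281 in CD8+ Tc, 1 receptor among them, and 304 in CD4+ Tc with no receptor. That receptor was Cxcr5, with 2.78 and 6.17 CPM in the Havcr2fl/fl;E8icre/+ libraries and 1.79 and 0.834 CPM in the Havcr2fl/fl libraries (log2 fold change 1.77, SE 0.61, adjusted p = 1.00). In CD4+ Tc, Cxcr5 was 12.1 and 13.9 CPM against 7.50 and 6.93 CPM (log2 fold change 0.84, SE 0.38, adjusted p = 1.00). The Cxcr5 levels of the genotypes did not overlap in either lineage, unlike those of the other receptors. With 2 libraries per genotype such a gap often arises from the order of values alone. The share of all genes with such a gap was not counted. Without the library labelled Havcr2fl/fl;E8icre/+ replicate 1, the fold change of Cxcr5 was 2.24 in CD8+ Tc and 0.93 in CD4+ Tc on the log2 scale, with adjusted p of 1.00 in both and no receptor called.

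Cxcr6 levels were 414 and 421 against 465 and 385 CPM in CD8+ Tc (log2 fold change -0.02), and Cxcr3 levels were 59.2 and 97.2 against 88.2 and 69.8 CPM (-0.02), both differences smaller than the spread within a genotype. Without the library labelled Havcr2fl/fl;E8icre/+ replicate 1 they were -0.02 for Cxcr6 and 0.29 for Cxcr3. Cx3cr1 had 35.4 and 47.2 CPM against 73.9 and 44.2 CPM (-0.51, SE 0.26, adjusted p = 1.00), which was -0.33 without that library and ran from -0.84 to -0.10 over the libraries left out, the smallest without Havcr2fl/fl replicate 1. Cxcr4 had 29.9 and 22.5 CPM against 52.4 and 18.8 CPM (-0.42, SE 0.38, and -0.66 without that library), with both extremes from the Havcr2fl/fl libraries. Ccr2 differed by -0.15 with and -0.12 without it, and Ccr7 by 0.21 and 0.67. Ccr9 had 11.2 and 4.87 CPM against 4.86 and 6.04 CPM (0.57), and its sign turned without the library labelled Havcr2fl/fl;E8icre/+ replicate 1 (-0.18), as it did in CD4+ Tc (0.70 with and -1.06 without that library). The other differences in CD4+ Tc were, with and without it, -0.07 and 0.0429 for Cxcr3, -0.37 and -0.48 for Cxcr4, -0.23 and -0.0215 for Cxcr6, -0.0432 and -0.21 for Cx3cr1, -0.0382 and -0.26 for Ccr2, and 0.46 and 0.68 for Ccr7. The test of whether genotype differences differ between CD8+ and CD4+ Tc called no receptor, against 0.0184% of 10894 genes (2 genes), nor did it without that library (42 genes), and with all libraries the smallest unadjusted p among the receptors was 0.121 (edgeR). No gene of the lists of other receptors, ligands, signaling and egress passed in these 3 comparisons.

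**Figure D5:**
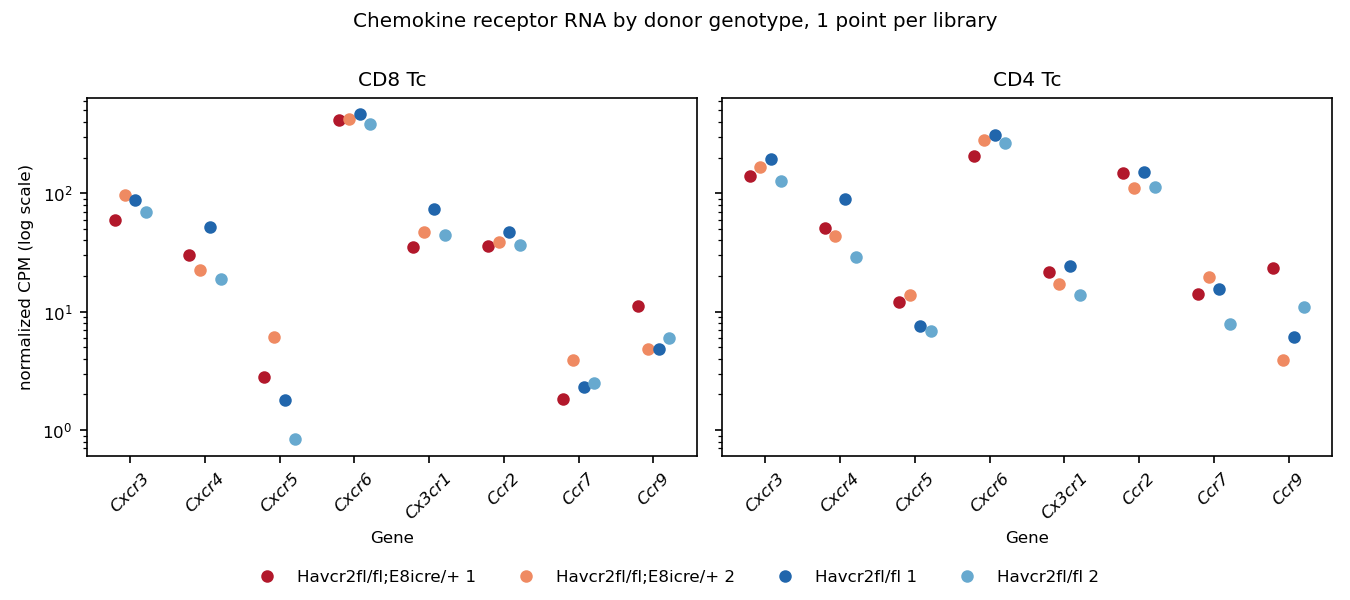
Level of each receptor (CPM, log scale) in CD8+ and CD4+ Tc of each library by genotype. No receptor passed the test. Apart from Cxcr5, the points of the genotypes overlap, and with 2 libraries per genotype a gap often arises from the order of values alone. In CD8+ Tc Cxcr5 lies at 2.78 and 6.17 CPM in Havcr2fl/fl;E8icre/+ (69 UMIs) and at 1.79 and 0.834 CPM in Havcr2fl/fl (11 UMIs).

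The genes whose levels followed each receptor most closely over Tc states and libraries were listed by Pearson correlation of log2(CPM + 1) over 63 points with at least 20 cells, which share libraries and depth, as a description. They are the highest of 5971 or 5972 genes compared, a search that by itself favours high values. Cxcr3 was followed by Spint2 (r = 0.87), Gstp3 (0.81) and Faah (0.80). For Cxcr6 these were Themis (0.86), Klrd1 (0.82) and Fasl (0.78), and for Ccr2 4930523C07Rik (0.78), Ifngr1 (0.78) and Atp2b1 (0.77). Cx3cr1 went with Smpdl3b (0.73), Itga4 (0.67) and Rasgrp2 (0.65), and Cxcr4 with St3gal1 (0.68), Nfic (0.67) and Arhgap26 (0.63). The scarcer Ccr7 followed Id3 (0.67), Tcf7 (0.67) and Slamf6 (0.63), Cxcr5 followed Prkca (0.74), Cd81 (0.69) and Hif1a (0.67), and Ccr9 followed Tnfrsf1b (0.56), Birc2 (0.54) and Lztfl1 (0.54), the last of which overlaps it on the other strand.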

How the data were processed

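The authors deposited unnormalized UMI counts per gene and barcode for each library, made with Cell Ranger 6.1.2 on mm10 according to the submitters' processing notes, from 10x Genomics 3′ libraries. The counts of the antibody tag entered neither library sizes nor tests. The cell filter asked for at least 500 genes and 1000 UMIs and for no more than 10% mitochondrial UMIs (11632 of 15784 barcodes), and doublets called by Scrublet (2, 5, 9 and 109) were removed. Clusters were made with Seurat 5.3.0 in R 4.3.3.

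Counts were summed per library and class and tested with edgeR 4.0.16 (TMM, filterByExpr, quasi-likelihood test, Benjamini-Hochberg adjustment over all genes tested, threshold 0.05). The CD8+ and CD4+ Tc and the gates were compared with the mouse as a block, and the genes that define a class (Cd4, Cd8a, Cd8b1, Tcf7 or Tox) were left out of its test. Levels in states are unadjusted CPM, and those in tests carry TMM factors. The 4 libraries come from 4 mice. Replicate numbers mark no stated pair, and the deviations of equal numbers correlated at -0.116 in CD8+ Tc and -0.0769 in CD4+ Tc.

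Alternatives were DESeq2 1.42.0, DESeq2 size factors, no filter on low counts, stricter cells (1000 genes, 5% mitochondrial UMIs), doublets kept (assigned by Cd3 and Cd8 or Cd4 UMIs), doublets at 0.8% per 1000 barcodes, donor tag only, no cycling cells, each library left out, blocks, unthinned gates and other clusterings. The 8 receptors are named throughout, as are list genes past the threshold, except some that are not reported here, and, for each receptor, the 3 genes of highest correlation. The receptors and the lists were chosen with earlier results of these data known. The tests were tried on simulated sums of the same depth. These had a single dispersion for all genes and no library effects, a simpler setting than the data. Sums and levels were computed in Python 3.11.15 (scipy 1.17.1, pandas 2.3.3), and Scrublet was run from scanpy 1.11.5.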

Additional observations from a re-analysis of the deposited data

Results flagged for a closer look

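Cx3cr1 in CD8+ Tc with against without a Tcf7 UMI differed in direction between the genotypes. The within-library differences, on the log2(CPM + 1) scale, were 0.15 and 0.64 in the Havcr2fl/fl;E8icre/+ libraries and -1.12 and -0.61 in the Havcr2fl/fl libraries. Every library of one genotype thus moved one way and every library of the other the opposite way, which is what drew attention to it, and the difference between genotypes was not tested. The cells with Tcf7 gave 26, 65, 10 and 7 Cx3cr1 UMIs. The library labelled Havcr2fl/fl;E8icre/+ replicate 1 goes against its label by the Havcr2 level of CD8+ Tc alone, and its difference was the smallest of the 4. It was found by scanning all 8 receptors for Tcf7, for Tox and between CD8+ and CD4+ Tc, and no other such split was seen. With so few libraries, random signs alone give such a split now and then over a scan of this kind. The share of all genes with such a split was not counted.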

How the results depend on the processing

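Of the receptors called, all 7 between CD8+ and CD4+ Tc kept their direction under every alternative, and Cxcr4 alone lost the call, without the mouse as a block. The number of genes called there (2672) was 1576 with DESeq2, 1680 without cycling cells, 1009 without the mouse block and 1756 to 2231 with 1 library left out. For Tcf7 (1539 genes) these were 897, 831, 671 and 808 to 1639, and for Tox (1196 genes) 400, 492, 16 and 752 to 934. In the Tox comparison 1 receptor was called without the mouse block, Cxcr4 lost the call with DESeq2 and Cxcr6 with unthinned gates, which also moved Ccr2 to -3.07, Cx3cr1 to -1.62, Cxcr4 to -1.001, Cxcr3 to -0.81 and, for Tcf7, Ccr7 to 5.38. Cx3cr1 was -1.35 for Tox without cycling cells. In the genotype comparisons 0 receptors were called under every alternative. The genes called in CD8+ Tc (3) numbered 84 with no filter on low counts, 0 with doublets kept, 0 without cycling cells and 1 to 10 with 1 library left out, 10 of them without the library labelled Havcr2fl/fl;E8icre/+ replicate 1. Those in CD4+ Tc (1) numbered 0 with DESeq2 size factors, stricter cells, doublets kept or removed at the expected rate, 5 with DESeq2 or without cycling cells, 51 with no filter and 4 to 29 with 1 library left out. The interaction (2) gave 58 with no filter, 4 with doublets at the expected rate and 4 to 42 with 1 library left out, where the lone library of a genotype is assumed to vary like the others. With the replicate block 0 genes were called in CD8+ and 0 in CD4+ Tc and no receptor changed its call. A crossed replicate block, chosen after seeing the data, called 61 and 38 genes.

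Differences near 0 turned their sign. For genotype in CD8+ Tc, Cxcr3 was 0.00733 with no filter, 0.11 with doublets kept and 0.00262 with doublets at the expected rate, Cxcr6 was 0.00197, 0.00788 with stricter cells and 0.12 with doublets kept, and Ccr2 was 0.0208 without cycling cells. In CD4+ Tc, Cx3cr1 was 0.0515 with stricter cells, 0.0404 with doublets kept and 0.0182 with the replicate block, Cxcr3 was 0.0342 with doublets kept, and Ccr2 was 0.10 with doublets kept, 0.0104 at the expected rate and 0.0596 without cycling cells. With 1 library left out, the ranges in CD8+ Tc were -0.41 to 0.29 (Cxcr3), -0.99 to 0.49 (Cxcr4), -0.15 to 0.12 (Cxcr6), -0.84 to -0.10 (Cx3cr1), -0.33 to 0.0445 (Ccr2), -0.40 to 0.67 (Ccr7) and -0.18 to 1.04 (Ccr9), and in CD4+ Tc -0.35 to 0.28 (Cxcr3), -0.93 to 0.70 (Cxcr4), -0.36 to 0.47 (Cx3cr1), -0.26 to 0.19 (Ccr2) and -1.06 to 1.503 (Ccr9). For Tcf7, Cx3cr1 was -0.0855 with DESeq2, -0.55 without cycling cells, -0.0156 without the mouse block, -0.19 with unthinned gates and -0.39 to 0.30 with 1 library left out. Ccr2 was -0.51 without cycling cells and -0.29 to 0.48, and Ccr9 -0.00293 with unthinned gates and -1.08 to 1.09. For Tox, Ccr9 was 0.0821 with stricter cells, 0.00509 without cycling cells and -0.74 to 0.43. Of the levels in states, Cxcr6 in the cluster led by Fcer1g and Itga1 was 779 CPM without integration, where Cx3cr1 and Ccr2 of short-term effector-like cells were 226 and 178, Ccr7 of naive or memory-like CD8+ Tc was 3.59 and Ccr2 of the CD4+ cluster led by Ifitm1 was 347. At a finer resolution Ccr7 was 0 in that CD8+ state and 0.656 in CD4 precursor-like cells. The cause of these changes was not tested. Few UMIs limit Cxcr5, Ccr7 and Ccr9.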

Other observations

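The naive or memory-like CD8+ Tc, 459 cells, fell into 3 main pieces at the finer resolution, which differed in some receptors. These were chosen for description after the values were seen and with no test. Cxcr3 was alike in the pieces, with means of 131, 108 and 136 CPM. A piece of 150 cells held all 39 Ccr7 UMIs of the state (43.4 ± 10.1 CPM over 4 libraries), with Tcf7 at 418 and Il7r at 844 CPM. A piece of 225 cells had no Ccr7 UMI, Cx3cr1 at 262 ± 89.8 CPM, and Gzma, a granule protease, at 602 CPM, with Klf2 at 1332 CPM. A piece of 79 cells, with as few as 9 in a library, combined Ccr2 (428 ± 149 CPM) and Cxcr6 (569 ± 95.3 CPM) with Itga1 (339 CPM) and Ly6c2 (1834 CPM).

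The last piece resembled the CD4+ cluster led by Ifitm1 and Itga1 in its receptors, where Ccr2 stood at 736, Cxcr6 at 455 and Itga1 at 130 CPM. In that CD4+ cluster S1pr1 was at 264 CPM, beside 221 CPM in the CD8+ piece. Short-term effector-like CD8+ Tc also combined these genes, with Ccr2 at 371, Cxcr6 at 410, Itga1 at 117 and S1pr1 at 243 CPM. In other receptors they differed, with Cx3cr1 at 745 CPM against 57.1 in the piece and 10.1 in the CD4+ cluster. Their Cxcr3 was 14.5 CPM, against 136 in the piece and 124 in the CD4+ cluster. The 224 Tc with both Cd4 and Cd8 UMIs gave 330 ± 54.2 CPM of Cxcr6, 126 ± 24.4 CPM of Cxcr3 and 102 ± 52.6 CPM of Ccr2, each between the means of CD8+ and CD4+ Tc.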
